A study of Homo sapiens with 6 samples.

Results

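The 4 mature miRNAs annotated at the miR-423 locus were examined in whole Müller glial cells and in the extracellular vesicles (EV) that these cells released. They are hsa-miR-423-5p and hsa-miR-423-3p, the arms of the miR-423 hairpin, and hsa-miR-3184-5p and hsa-miR-3184-3p, the arms of a hairpin annotated on the opposite strand of the same DNA. The members were taken by name from the deposited count tables and make up 4 of the 2576 mature miRNAs listed there. The authors sequenced small RNA of MIO-M1, an established line of human Müller glia with a wild-type genotype, from whole cells in 3 samples at passages 22, 24 and 26. They also sequenced 3 samples of secreted EV from this line at passages 23, 25 and 27. The whole cell samples and the EV samples are numbered 1, 2 and 3 in order of passage, and equal numbers do not mark a pair. All cells were grown in medium with fetal calf serum, and EV were pelleted by centrifugation from conditioned medium. This medium was serum-free according to the labels and depleted of vesicles according to the methods, and the sources also differ in the conditioning time and the number of washes. RNA was extracted with one kit from cells (Qiagen RNeasy) and with another from EV (Total Exosome RNA Isolation Kit), and intact EV were treated with RNase A according to the methods, so these steps and the group cannot be told apart. The samples are passages of 1 line, so that the p-values below measure only the spread between these passages.

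A miRNA is cut from a hairpin-shaped transcript, first in the nucleus by the Drosha complex and then in the cytoplasm by Dicer, which leaves a short duplex of the 5p arm and the 3p arm. An Argonaute protein keeps one strand of the duplex and the other is usually degraded, and the kept strand recognises messenger RNA largely through its seed, bases 2 to 8. miR-423 is widely expressed, both of its arms are regularly found in cells and in body fluids, and miR-423-5p has often been measured in serum and plasma, where it has also been used as a reference miRNA.

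The mature sequences from RefSeq are shown because the seeds and the complementarity of the opposite strands define the locus. All 4 members matched a RefSeq entry, and the capitals mark the seed.
hsa-miR-423-5p: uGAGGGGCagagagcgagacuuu
hsa-miR-423-3p: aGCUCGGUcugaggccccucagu
hsa-miR-3184-5p: uGAGGGGCcucagaccgagcuuuu
hsa-miR-3184-3p: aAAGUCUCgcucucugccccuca
miR-423-5p and miR-3184-5p begin with the same 8 bases and share the seed GAGGGGC, which no other mature human miRNA in the RefSeq table has. The seeds of miR-423-3p and miR-3184-3p were found in no other entry of that table. miR-3184-3p is the exact complement of miR-423-5p over all 23 bases, and miR-3184-5p is complementary to miR-423-3p over a stretch of 21 bases. G and C make up 56.5% of miR-423-5p, 65.2% of miR-423-3p, 58.3% of miR-3184-5p and 56.5% of miR-3184-3p.

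In GRCh38.p14 the plus strand of chromosome 17 carries miR-423-5p at chr17:30117095-30117117 and miR-423-3p at chr17:30117131-30117153. The minus strand carries miR-3184-5p at chr17:30117128-30117151 and miR-3184-3p at chr17:30117095-30117117. In the GENCODE 29 annotation the MIR423 hairpin covers 94 bases from 30117079 to 30117172, and the MIR3184 hairpin 75 bases from 30117086 to 30117160. The MIR423 hairpin lies on the same strand as NSRP1, which encodes a nuclear speckle splicing regulator. It falls in an intron of 11 of the 14 NSRP1 transcripts that span it, overlaps the edge of an exon in 2 and lies wholly within an exon in 1. It also lies in an intron of the non-coding transcript AC104984.2 on the other strand. The deposited tables give positions of another build, which they do not name, with miR-423-5p at 28444113 to 28444135 of chromosome 17.

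Counts assigned to mature miRNAs totalled 396025 to 3990900 per whole cell library and 1225541 to 3134561 per EV library. Values are given as CPM, the count scaled to an equal total for each library. Where no read was counted, up to 3 counts were taken as possible, which corresponds to 0.752 to 7.58 CPM in whole cell libraries and 0.957 to 2.45 CPM in EV libraries. Whole cell 1 had the lowest total. The 7 miRNAs listed as Müller glial markers, among them miR-9-5p, miR-125b-5p and miR-204-5p, were counted in every library and summed to between 152024 and 161326 CPM in whole cells and between 83054 and 111630 CPM in EV. By the test described below 1 of the 7 was higher in EV (miR-9-3p), 2 were lower (miR-204-5p and miR-181a-5p) and 4 did not pass, where 14.7% of all miRNAs tested were higher and 14.0% lower. A list of 9 miRNAs of blood cells and serum summed to between 172 and 1174 CPM in whole cells and between 1779 and 2403 CPM in EV. Of this list, miR-451a, miR-142-5p, miR-144-3p and miR-144-5p were at 0 in each of the 3 whole cell libraries. With 4 miRNAs of the list past the abundance filter, 3 were higher in EV by the same test, 0 were lower and 1 did not pass. The higher ones were miR-451a, miR-142-3p and miR-122-5p. miR-451a and miR-142-3p, the latter with counts of 0, 0 and 1 in whole cells, passed the filter only through the EV libraries. A higher level in EV was thus built into their passing, and this tally cannot be weighed against the shares of all miRNAs. The part of such RNA in the values below was not tested.

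miR-423-3p was the more abundant arm in every whole cell library and the less abundant arm in every EV library. By the edgeR test its level fell in EV (1 of the 2 members tested, where 14.0% of all miRNAs were lower and 28.6% differed either way), a call that was lost with the trend on G and C content removed and without any 1 of 3 libraries named below, whereas the levels of miR-423-5p overlapped between the groups. Neither arm of miR-3184 was counted in any library. Of the 4 members, the 2 arms of miR-423 passed the filter, which asked for 5 CPM or more in 3 or more libraries, as did 430 miRNAs in all, and the 2 arms of miR-3184 did not.

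miR-423-3p had 989, 25590 and 8278 counts in whole cells 1, 2 and 3, or 2497, 6412 and 6611 CPM. In EV 1, 2 and 3 it had 1743, 2429 and 2480 counts, or 1422, 1191 and 791 CPM. Whole cell 1 was the lowest of its group, and all 3 EV libraries lay below it. The mean level was 5173 ± 2320 CPM (SD, n = 3) in whole cells against 1135 ± 319 CPM (SD, n = 3) in EV, with a two-sided exact permutation p = 0.1, the smallest that 3 against 3 libraries allow. Of the 430 miRNAs, 27.9% had all EV libraries below all whole cell libraries in CPM. By abundance within a library miR-423-3p ranked 50, 34 and 30 in whole cells and 61, 73 and 74 in EV.

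In the edgeR quasi-likelihood fit of all 430 miRNAs, miR-423-3p had a log2 fold change of -2.25 (SE 0.54) in EV relative to whole cells. The adjusted p was 0.0172, and the level was 4.76-fold lower. The 95% interval of the log2 fold change ran from -3.51 to -0.996. In the same fit 14.0% of miRNAs were lower in EV at an adjusted p below 0.05, 14.7% were higher and 28.6% differed in either direction, so that a call of this kind was not rare among miRNAs. The median log2 fold change of all miRNAs was -0.23, and -0.41 with RLE scaling, under which miR-423-3p had -2.40. miR-423-3p did not reach the additional limit of 2.5 on the log2 scale that the study stated. That limit and the adjusted p were passed together by 21.6% of miRNAs. The paper nevertheless lists miR-423-3p among the miRNAs lower in EV, with a change smaller than this limit. In DESeq2, which called 34.7% of miRNAs, the log2 fold change of miR-423-3p was -2.40 at an adjusted p of 3.29e-05, with adjusted p from 3.29e-05 to 0.623 over the alternatives.

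The call for miR-423-3p did not hold in 4 of the alternatives. When the trend of the fold change on the G and C content of the mature sequence was removed, its log2 fold change was -0.44 with an edgeR adjusted p of 0.623. It was also lost when whole cell 2, whole cell 3 or EV 2 was left out, with edgeR adjusted p of 0.0656, 0.0502 and 0.0504 and log2 fold changes of -2.13, -2.19 and -2.24.

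miR-423-5p had 241, 13836 and 4539 counts in whole cells 1, 2 and 3, or 609, 3467 and 3625 CPM. In EV 1, 2 and 3 it had 6200, 6047 and 6543 counts, or 5059, 2966 and 2087 CPM. EV 1 held the highest level and whole cell 1 the lowest, and the remaining whole cell libraries lay between EV 1 and EV 2. The mean level was 2567 ± 1698 CPM (SD, n = 3) in whole cells against 3371 ± 1527 CPM (SD, n = 3) in EV, a difference smaller than the spread within either group (two-sided exact permutation p = 0.6). Its rank by abundance was 89, 46 and 45 in whole cells and 31, 53 and 51 in EV. The edgeR log2 fold change was 0.32 (SE 0.74, adjusted p = 0.796), with a 95% interval from -1.40 to 2.05. This interval does not show that the levels were alike, and the sign of the estimate turned when whole cell 1 or EV 1 was left out, with log2 fold changes of -0.18 and -0.24.

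**Figure D1:**
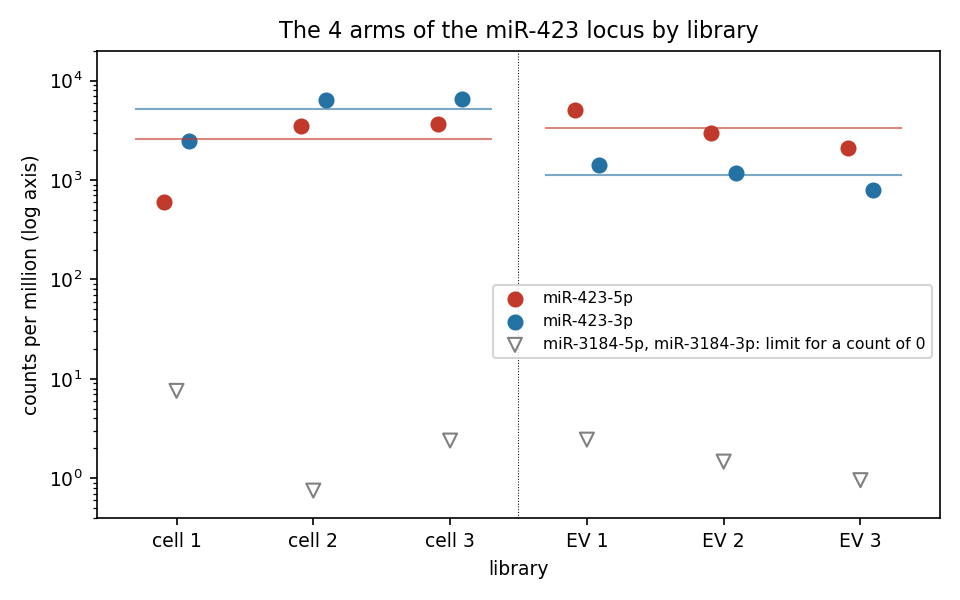
Level in CPM (log axis) of miR-423-5p (red) and miR-423-3p (blue) in each of the 6 libraries, with lines at the group means of the 3 libraries and open triangles at the limit that a count of 0 allows for each miR-3184 arm. The blue points lie above the red ones in all 3 whole cell libraries and below them in all 3 EV libraries, and the triangles lie at or below 7.58 CPM.

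The arms of one hairpin are made in equal number when the precursor is cut, so the ratio of their counts compares the arms as they were kept and as they were captured in a library. Because both counts come from the same library, the ratio does not depend on depth or on scaling between libraries. miR-423-5p made up 19.6% of miR-423 counts in whole cell 1 (95% Clopper-Pearson interval 17.4 to 21.9), 35.1% in whole cell 2 (34.6 to 35.6) and 35.4% in whole cell 3 (34.6 to 36.2). It made up 78.1% in EV 1 (77.1 to 79.0), 71.3% in EV 2 (70.4 to 72.3) and 72.5% in EV 3 (71.6 to 73.4). These intervals cover counting error only, since no step that collapses copies of a starting molecule is named.

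The dominant arm therefore differed between the groups in all 6 libraries. In whole cells there were 4.10, 1.85 and 1.82 counts of miR-423-3p for each count of miR-423-5p. In EV there were 3.56, 2.49 and 2.64 counts of miR-423-5p for each count of miR-423-3p. The mean share of the 5p arm was 30.0% ± 9.04 (SD, n = 3) in whole cells against 74.0% ± 3.59 (SD, n = 3) in EV, a difference of 43.9 percentage points (two-sided exact permutation p = 0.1, the smallest possible). Whole cell 1, the library with the fewest counts, stood apart from the other whole cell libraries in the direction away from EV, and without it the difference was 38.7 points.

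**Figure D2:**
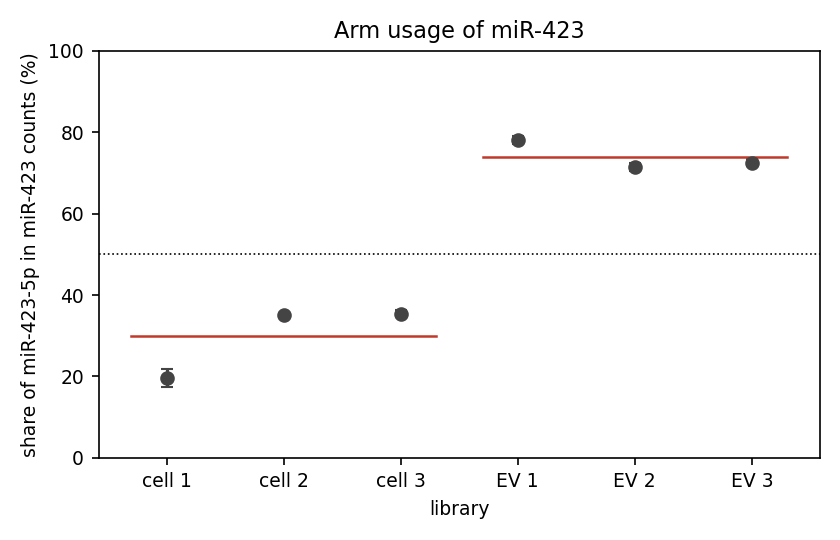
Share of miR-423-5p in the counts of both miR-423 arms (%, y axis) in each library, with 95% Clopper-Pearson intervals as bars and group means as red lines. Whole cell libraries lie between 19.6% and 35.4%, EV libraries between 71.3% and 78.1%, on either side of the dotted line at equal arms.

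Arm usage was tested in an edgeR quasi-likelihood fit of the arm by group interaction, with a term for each library. The fit covered the 110 hairpins of which both arms passed the filter and had names alike apart from 5p or 3p. Hairpins with a locus number in the name of 1 arm only were thus left out, and a name at several loci was treated as a single hairpin. The log2 ratio of miR-423-5p to miR-423-3p was higher in EV by 2.77 (SE 0.68, adjusted p = 0.0298), a 6.84-fold change of the ratio. The 95% interval of this shift ran from 1.16 to 4.39. In the same fit 22.7% of hairpins, 25 in number, passed an adjusted p below 0.05, of which 10 shifted towards the 5p arm and 15 towards the 3p arm. limma on the log2 ratios gave the same shift of 2.77 with an adjusted p of 0.0229, and adjusted p from 0.0229 to 0.303 were obtained over the alternatives. The call was lost when any 1 of the 3 whole cell libraries was left out, with shifts of 2.39, 2.97 and 2.98 and edgeR adjusted p of 0.203, 0.303 and 0.240. The unadjusted edgeR p of miR-423 was then 0.0180, 0.0274 and 0.0173. In these fits the filter was applied anew and left 90, 92 and 92 hairpins. Hairpins with an arm that reached 5 CPM only in whole cells could not pass it. Of the hairpins left, 0 were called by edgeR in each fit, with 15, 12 and 11 at an unadjusted p below 0.05. The G and C content of miR-423-5p minus that of miR-423-3p was -8.70 percentage points, and with the slope of the shift on this difference removed, an alternative chosen after the data were seen, the limma shift was 1.93 with an adjusted p of 0.0915.

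A shift in arm usage was common in this comparison, and that of miR-423 was moderate in size among all 110 hairpins. The median absolute shift of the 110 hairpins was 2.44 on the log2 scale, miR-423 ranked 52 by absolute shift, and it had the smallest absolute shift of the 25 hairpins called. The share of the 5p arm did not overlap between the groups in 49.0% of the 98 hairpins with counts in all libraries and lay higher in all EV libraries in 20.4%. A dominant arm that differed between all whole cell and all EV libraries was found in 10.2% of these hairpins, 10 in number, of which 5 turned towards the 5p arm in EV. They were miR-130b, miR-136, miR-193b, miR-299, miR-3129, miR-377, miR-423, miR-424, miR-487a and miR-628.

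Among these 10 hairpins miR-423 was the most deeply counted, with at least 241 counts in either arm of every library. The largest shifts of the fit, those of miR-29c, miR-424, miR-582, miR-487a and miR-379, came from hairpins with an arm at 0 in all EV libraries, for which no fold is given. A minimum of 10 counts in either arm of every library, chosen after the values were seen, left 27 hairpins. By absolute shift miR-423 ranked 6 among these 27 hairpins. In 6 of them arm usage was called (miR-21, miR-127, miR-181a, miR-299, miR-382 and miR-423), and in 3 the dominant arm differed between the groups (miR-299, miR-423 and miR-628).

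miR-299, from the 14q32 miRNA cluster, turned the other way from miR-423. Its 5p arm made up 95.1%, 95.6% and 95.7% of its counts in whole cells and 32.8%, 43.7% and 16.3% in EV, a shift of -5.64 (edgeR adjusted p = 0.0139). miR-628 turned in the same direction as miR-423. Its 5p arm made up 39.4%, 33.4% and 37.0% in whole cells and 83.4%, 57.0% and 71.6% in EV, a shift of 2.15 that did not pass the test (edgeR adjusted p = 0.208).

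**Figure D3:**
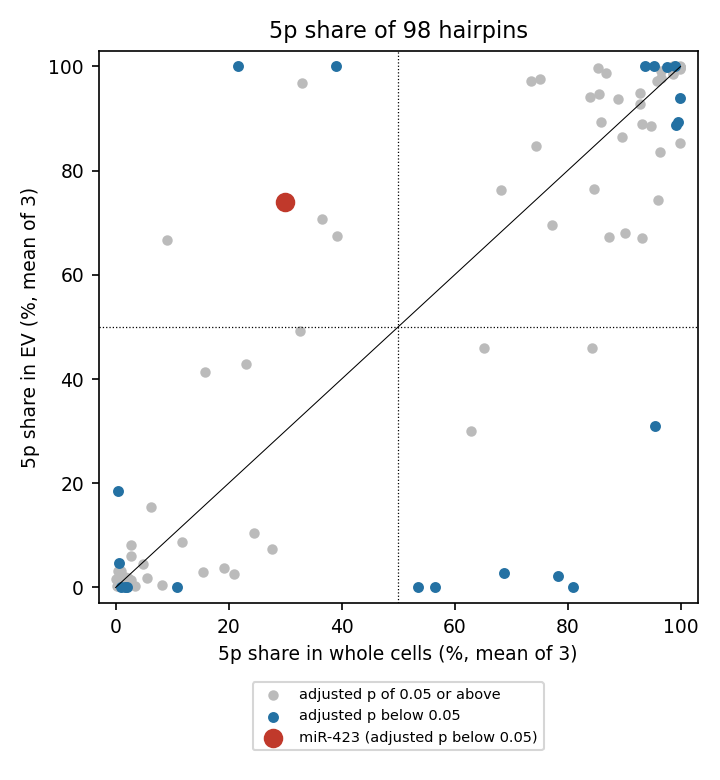
Mean share of the 5p arm (%) in whole cells (x axis) and in EV (y axis) for the 98 hairpins with counts in all libraries, each point the mean of 3 libraries per group. miR-423 (red) lies in the upper left, at 30.0% in whole cells and 74.0% in EV, and blue points passed the edgeR test of arm usage at an adjusted p below 0.05.

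Summed over both arms, miR-423 took 0.311%, 0.988% and 1.02% of all miRNA counts in whole cells 1, 2 and 3. It took 0.648%, 0.416% and 0.288% in EV 1, 2 and 3. The groups overlapped, since whole cell 1 lay below EV 1 and EV 2. The mean share of 0.774% ± 0.402 (SD, n = 3) in whole cells did not differ from that of 0.451% ± 0.183 (SD, n = 3) in EV beyond the spread of the libraries (two-sided exact permutation p = 0.3). Without whole cell 1 the difference moved from -0.323 to -0.555 percentage points. As these are shares of a library, they also depend on the counts of all other miRNAs. They give neither the number of molecules per vesicle nor the number of vesicles that carry the miRNA, and these cannot be told apart.

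On the opposite strand, miR-3184-5p and miR-3184-3p were at 0 in all 6 libraries. Reads had been assigned by strand, as the header of the deposited tables gives strand setting 1. The miR-423 arms had 1230, 39426 and 12817 counts in whole cells 1, 2 and 3 and 7943, 8476 and 9023 counts in EV 1, 2 and 3, which is 78915 counts in all. A count of 0 beside these allows the opposite strand a share of up to 0.244%, 0.00761% and 0.0234% of the locus in whole cells and up to 0.0378%, 0.0354% and 0.0332% in EV. Over all libraries together the limit was 0.0038%. The least certain value was that of whole cell 1, the library with the lowest total. No difference in miR-3184 between whole cells and EV could be tested at a count of 0.

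The tables hold 56 pairs of mature miRNAs that overlap on opposite strands by at least 10 bases. In 13 of these pairs the more counted strand had at least 100 counts over the 6 libraries, and in 10 of the 13, both miR-423 pairs included, the other strand had a count of 0 in every library. The pair of miR-103a-3p and miR-103b was also one-sided, with 88449 counts against 0. The miRNA opposite miR-24-3p had 1 count beside 76748, and that opposite miR-122-5p, miR-3591-3p, had 22 beside 1010, or 2.13%. The other arm of miR-3591, miR-3591-5p, had 588 counts beside 0 of miR-122-3p. This pair is among the 10, although both strands of its locus were counted. miR-486-3p, paired with miR-486-5p by position, had 24 beside 13743, but it is also the other arm of the miR-486 hairpin. Counts were kept per miRNA and not per position. For a miRNA annotated at several positions they cannot be given to 1 strand of 1 locus. The 13 pairs are also not separate loci, since those of miR-423, miR-122, miR-3065 and miR-374b each appear with both arms. Within these limits, a count of 0 was also found opposite miRNAs of other loci, among them miR-203a and both arms of miR-3065 and miR-374b.

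**Figure D4:**
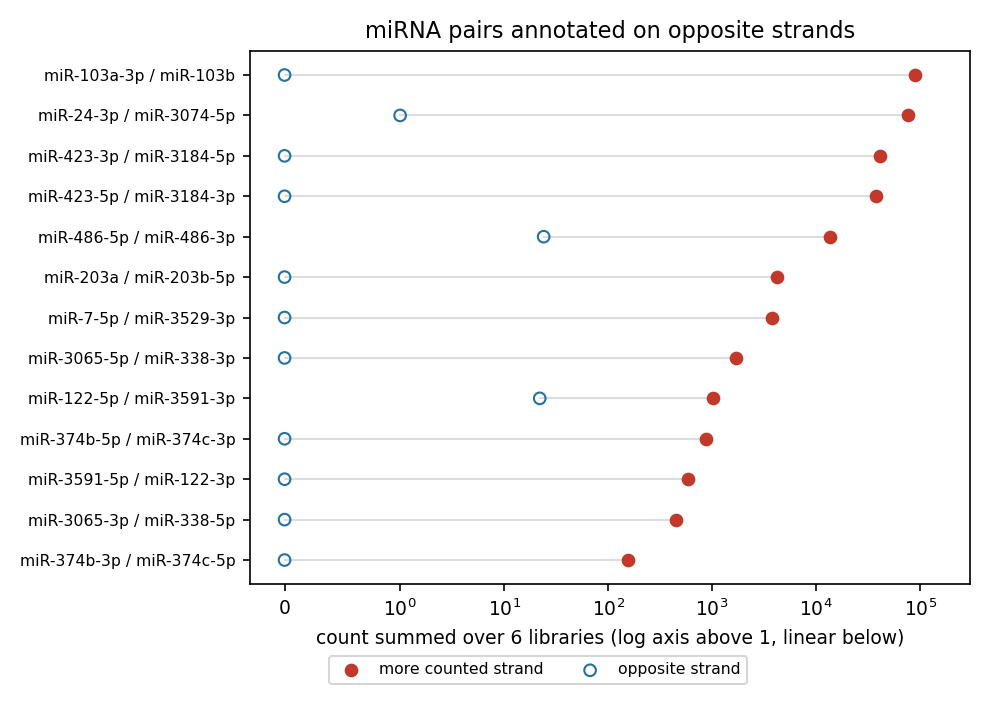
Counts summed over the 6 libraries (x axis, logarithmic above 1 and linear below) for the 13 overlapping miRNA pairs whose more counted strand had at least 100 counts. Filled points give the more counted strand and open points the opposite strand, each as the count of a miRNA over all its positions. The open points lie at 0 in 10 pairs, among them miR-423-3p with miR-3184-5p (41509 against 0) and miR-423-5p with miR-3184-3p (37406 against 0).

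The miR-423 arms were set beside 12 miRNAs that are often chosen as references for RT-qPCR in cells, serum or vesicles, all of which passed the filter. One of them was higher in EV, 2 were lower and 9 did not pass the edgeR test, a count close to the 28.6% called among all miRNAs (14.7% higher and 14.0% lower). Their log2 fold changes ran from -3.07 to 1.70 with a median of -0.20, against -0.23 over all 430 miRNAs. miR-16-5p, a member of a family that restrains the cell cycle, was higher by 1.70 on the log2 scale (SE 0.33, edgeR adjusted p = 0.0109). miR-103a-3p, from an intron of a pantothenate kinase gene, had -1.33 (SE 0.39, edgeR adjusted p = 0.0406), and miR-484, which is made without Drosha, had -3.07 (SE 0.73, edgeR adjusted p = 0.0171). These calls were not all stable. miR-103a-3p lost its call with library totals only (edgeR adjusted p = 0.0628) and with the trend on G and C content removed (0.195), and kept it in 2 of 6 fits with a library left out, losing it without whole cell 2, whole cell 3, EV 1 or EV 3 (edgeR adjusted p from 0.0876 to 0.165). miR-484 had -1.29 with that trend removed (edgeR adjusted p = 0.276) and passed in 3 of 6 such fits, but not without whole cell 2, whole cell 3 or EV 1 (0.0868, 0.0508 and 0.0585). miR-16-5p passed in 4 of 6, but not without whole cell 2 or whole cell 3 (edgeR adjusted p of 0.103 and 0.0900). Among these, miR-423-3p lay between the reference miRNAs that were lower and miR-423-5p among the 9 that did not pass, of which miR-191-5p had 0.04 and miR-26a-5p had 0.03.

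**Figure D5:**
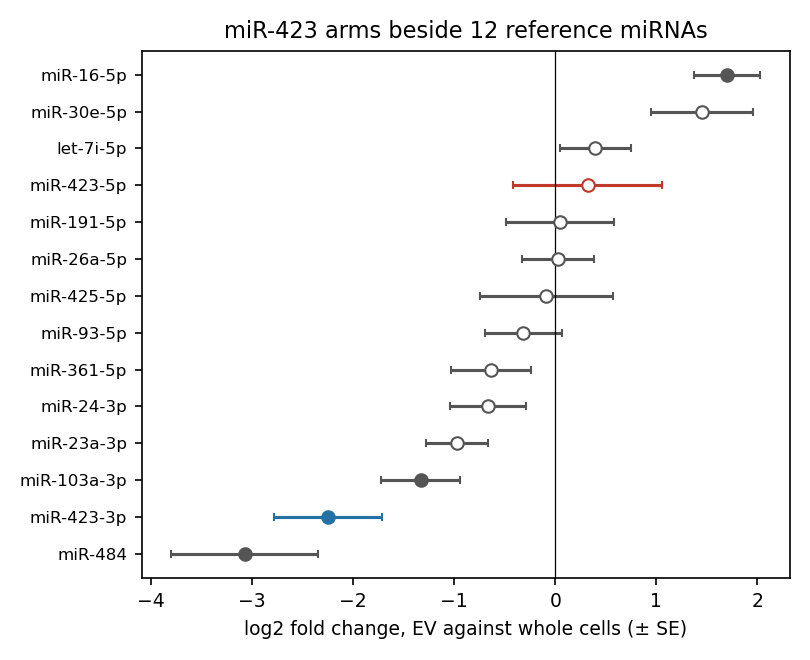
Log2 fold change in EV relative to whole cells, with its standard error as a bar, for the 12 reference miRNAs and both miR-423 arms (miR-423-5p red, miR-423-3p blue), from the edgeR fit of 430 miRNAs and 3 libraries per group. Filled points passed an adjusted p below 0.05, and the points run from -3.07 (miR-484) to 1.70 (miR-16-5p), with miR-423-3p at -2.25 and miR-423-5p at 0.32.

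Within each group the libraries stood in the same order by the level of either arm in CPM, from whole cell 1 (lowest) to whole cell 3 and from EV 3 (lowest) to EV 1, while the offset between the groups differed between the arms. Over the 6 libraries, which share their depth and their group, Pearson's r between log2(CPM + 4) of miR-423-5p and miR-423-3p was 0.106, and 0.392 without whole cell 1. The miRNAs most like miR-423-3p by this measure were miR-1260b (r = 0.988), miR-185-3p (0.973), let-7e-5p (0.972), miR-6747-3p (0.971) and miR-296-5p (0.970). Their r stayed at or above 0.955 when any 1 library was left out, which is no separate support because they were picked by r. Of these, let-7e-5p, a member of the let-7 family, was abundant, at 9767, 16011 and 17139 CPM in whole cells and 4981, 4812 and 4965 CPM in EV. miR-185-3p, miR-6747-3p and miR-296-5p were at 0 in every EV library. They passed the filter only through whole cells, so that their r largely restates the difference between the groups. miR-1260b had 40.4, 165 and 189 CPM in whole cells and 14.7, 2.94 and 0 CPM in EV. With only 18, 6 and 0 counts in EV, its r also largely restates that difference.

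The miRNAs most like miR-423-5p were miR-760 (r = 0.950), miR-502-3p (0.892), miR-486-5p (0.876), miR-4435 (0.813) and miR-193b-5p (0.798). For most of these the likeness rested on the low value in whole cell 1. Without that library r was 0.646 for miR-760, 0.633 for miR-502-3p, -0.161 for miR-486-5p and -0.618 for miR-193b-5p. It was 0.868 for miR-4435, which had a count of 0 in whole cell 1 and in EV 3. miR-486-5p, a miRNA of red blood cells and the only one of these on the list of blood cells and serum, had 164, 875 and 1161 CPM in whole cells and 1217, 1711 and 1197 CPM in EV. Its groups did not overlap in CPM, as was so for 48.4% of the 430 miRNAs in either direction, and its edgeR log2 fold change was 0.78 (adjusted p = 0.487).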

How the data were processed

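Small RNA libraries (QIAseq miRNA kit) of 3 whole cell and 3 EV samples were analysed. The authors deposited raw counts of reads assigned to mature miRNAs, without normalisation. The file headers name featureCounts 1.5.0-p1 with strand setting 1, miRBase 20 and Bowtie 1, whereas the methods name Cutadapt, Bowtie2 and another miRBase release, and the genome build is not given in the sources used here. The strand setting decides whether a read is given to an arm of miR-423 or of miR-3184. Samples were grouped by the fraction in their labels. Chi-square values between any 2 libraries, divided by their degrees of freedom, were at least 21.45, so none was a copy of another. The lowest was that of whole cell 2 with whole cell 3. These values cannot show whether 2 libraries came from the same RNA.

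The filter kept miRNAs of 5 CPM or more in 3 or more libraries. TMM scaling was applied (factors 0.896 to 1.20) and counts were tested with edgeR 4.0.16 in R 4.3.3, with Benjamini-Hochberg adjustment over the 430 miRNAs or 110 hairpins and a threshold of 0.05. DESeq2 1.42.0 and limma 3.58.1 (log2 of CPM with a pseudocount of 4 or 1) were alternatives. edgeR, DESeq2 and limma with the pseudocount of 4 were tested on simulated data with changes of 4 on the log2 scale. Smaller changes, such as those of miR-423, and arms absent from a group were not simulated. Single values were compared by two-sided exact permutation tests, and shares were given Clopper-Pearson 95% intervals, in Python 3.11.15 with scipy 1.17.1. Figures were drawn with matplotlib 3.10.9. Random steps used the seed 1. G and C content came from RefSeq mature sequences, matched for 390 of the 430 miRNAs (90.7%).

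The members and lists were chosen with earlier results of these data known. The miRNAs named were the members, the 5 most correlated with each counted member, opposite-strand pairs counted on both strands, the 5 called hairpins with the largest shift and the members of the lists. Hairpins in which the dominant arm differed were named after their values were seen. Other alternatives were the scaling factors, the filter, thinning to the smallest library, the thresholds, the denominator of shares and each library left out.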

Additional observations from a re-analysis of the deposited data

How the results depend on the processing

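No paired analysis was possible because no passage is shared between the groups. The scaling factors (TMM, RLE, upper quartile, totals only), DESeq2, thinning and the filter left the sign of both miR-423 arms, and the call of miR-423-3p at an adjusted p below 0.05, as they were. Without the filter miR-423-3p had a log2 fold change of -2.52, past the limit of 2.5. With the trend on G and C content removed, it had -0.44 and lost its call (edgeR adjusted p = 0.623), while miR-423-5p had 1.89 (adjusted p = 0.142). The trend alone came to -1.85 at the content of miR-423-3p and -1.62 at that of miR-423-5p, and Pearson's r across 390 miRNAs, which are not independent, was -0.345. The cause of this trend was not tested.

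Leaving out each library in turn gave log2 fold changes from -2.65 to -2.13 for miR-423-3p, past the test in 3 of 6 fits. For miR-423-5p they ran from -0.24 to 0.53, with the sign turned without whole cell 1 (-0.18) and without EV 1 (-0.24). The number of miRNAs called was 123, and it was 26 to 128 with a library left out, at its lowest without whole cell 2, whole cell 3 (37) and whole cell 1 (79). The filter was applied anew whenever a library was left out, and 378 to 408 miRNAs were then tested. The number called was 240 of 1188 tested without the filter, against 123 of 430 with it, and 31 of 430 at an adjusted p below 0.01. The shift in arm usage of miR-423 ran from 2.39 to 2.98, past the test in 3 of 6 fits, and the number of hairpins called from 0 to 34, with fewer samples and 90 to 92 hairpins tested without a whole cell library. With the slope on the G and C difference of the arms removed, an alternative chosen after the data were seen, the shift was 1.93 (limma adjusted p = 0.0915) and 27 hairpins were called. The difference in the 5p share ran from 38.7 to 46.6 percentage points, that in the share of miR-423 in all counts from -0.555 to -0.199, and the share of the opposite strand stayed at 0. The arms of miR-3184 gave no fold change under any alternative. Depth limits the miR-3184 values most in whole cell 1.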
